A study of Mus musculus with 2 samples.

Results

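AP-1 and heat shock immediate-early genes include genes that cells switch on within minutes of a stimulus or an injury, and 10 such genes were examined in the thymus of newborn mice: Fos, Fosb, Jun, Junb, Jund, Ier2, Atf3, Hspa1a, Hspa1b and Dusp1. They were listed by name and matched by gene identifier, with no threshold on a measured value, and all 10 were found among 43346 genes in both libraries. The thymus of 2 pups of strain B6NCrl was taken at postnatal day 0 and its total RNA sequenced. Each library held the 2 thymus lobes of 1 pup, both pups came from 1 pregnant female, and the labels name no treatment or genotype change. The libraries therefore form 1 group of 2 replicates, with no control against which a response could be measured. The spread between them holds animal, dissection and library preparation together. With n = 2 in 1 group no test was possible, and no p-value is given.

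AP-1 is a transcription factor made of 2 basic leucine zipper proteins, usually one of the Fos family with one of the Jun family, or a pair of Jun proteins. MAP kinases raise both the transcription and the activity of its subunits, and the phosphatase Dusp1 removes the activating phosphates from those kinases. Hspa1a and Hspa1b encode the inducible HSP70 chaperone, which heat shock factors switch on when proteins unfold. In the thymus AP-1 acts downstream of T-cell receptor signals. The same genes are also known to be induced while tissue is cut, warmed or dissociated, which is the reason for asking how far they differed between the animals.

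The depth was 39046411 expected counts in replicate 1 and 41576822 in replicate 2, where an expected count is an estimate and can be a fraction. The label was checked against thymus markers, and all 5 thymocyte markers (Lck, Cd8b1, Cd3e, Rag1 and Ptcra) and all 5 markers of cortical thymic epithelium were detected. In such bulk tissue, fewer cells of a type and less RNA per cell cannot be told apart. All 5 long noncoding RNAs of a nuclear list were higher in replicate 1, relative to the bulk of genes. Malat1 stood at 3907 TPM against 1892 TPM. The 5 log2 ratios of scaled counts ran from -0.99 to -0.36. Once trends with GC content and length were removed, they ran from -0.87 to -0.08. Leaning the same way were 109 of 118 genes annotated as sense intronic or as still to be tested by experiment. Whether replicate 1 held more nuclear RNA was not tested.

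Levels are given as TPM, a relative abundance corrected for transcript length, and detection was set at 1 TPM or more in each library. By this measure 13957 of all 43346 genes were detected. Of the 10 genes 8 were detected, Hspa1b and Fosb being the exceptions. Ordered by mean level they ran from Ier2, Junb and Jund through Dusp1, Jun, Hspa1a, Fos and Atf3 down to Hspa1b and Fosb. Among the 9 neighbouring pairs in this order, the library values of all 9 pairs were apart. The authors' deposited TPM bounds, whose level is not given in the sources used here, were apart in both libraries for 8 pairs, and those of Hspa1a and Fos touched in replicate 1. The median level of the 10 genes was 7.45 TPM in replicate 1 and 7.39 TPM in replicate 2. Together they took 0.0311% and 0.0291% of all gene counts.

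**Figure D1:**
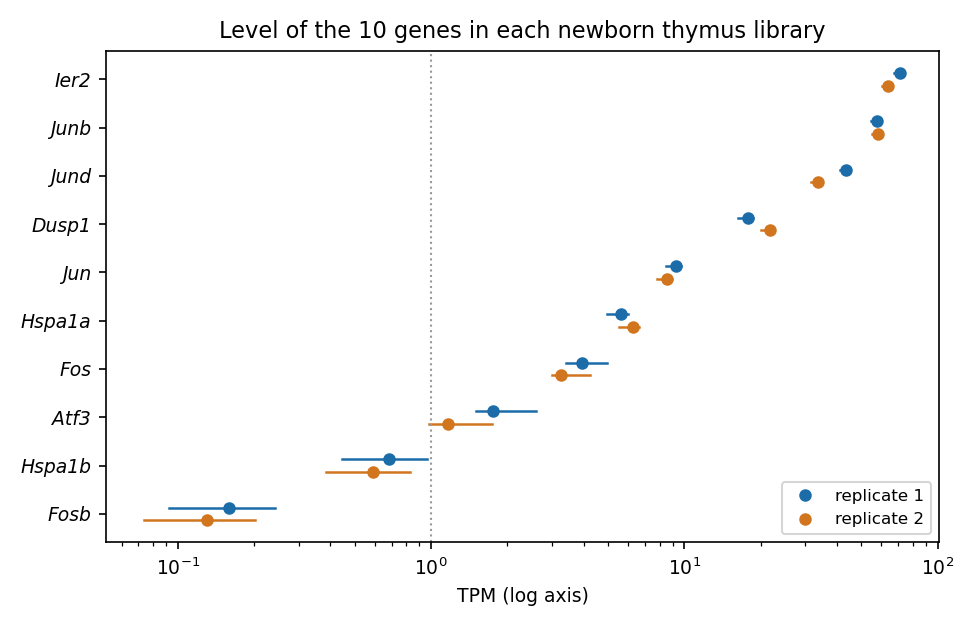
Level of each of the 10 genes on a log axis in TPM; points are the libraries, bars the authors' deposited TPM bounds, and the dotted line marks 1 TPM. The order of the genes was the same in both libraries, from Ier2 at 70.8 and 63.7 TPM to Fosb at 0.160 and 0.130 TPM.

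The coding sequences show which of these genes a short read can tell apart. The 60 coding bases most alike in the 3 Jun genes encode the end of the basic region, which touches DNA, and the start of the leucine zipper. Capitals mark the bases that all 3 genes share, 45 of 60:
Jun: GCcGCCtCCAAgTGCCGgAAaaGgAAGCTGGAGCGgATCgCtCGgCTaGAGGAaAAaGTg
Junb: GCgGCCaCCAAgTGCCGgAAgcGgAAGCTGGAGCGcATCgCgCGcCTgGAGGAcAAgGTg
Jund: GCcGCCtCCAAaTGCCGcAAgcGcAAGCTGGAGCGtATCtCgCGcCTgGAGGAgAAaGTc
In Fos and Fosb the most similar stretch lies in the basic region, with 51 of 60 bases shared and again in capitals:
Fos: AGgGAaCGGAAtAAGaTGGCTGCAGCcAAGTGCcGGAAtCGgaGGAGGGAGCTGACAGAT
Fosb: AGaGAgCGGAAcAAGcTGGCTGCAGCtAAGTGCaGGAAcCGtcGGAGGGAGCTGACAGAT
Even so, none of these 5 genes shared a stretch of 100 bases on its own strand with another annotated gene. On the opposite strand, 43.5% of such windows of Jund and 4.30% of those of Jun occur in an antisense gene. Reads of that length thus match 1 gene for Fos, Fosb and Junb, and for Jund and Jun only if strand was used. The heat shock pair differs in sharing long stretches on the same strand. Over 1926 aligned coding bases Hspa1a and Hspa1b differ at 8, an identity of 99.6%, and 638 bases in a row are identical. No 60-base window holds more than 2 differences, and the first that holds 2 has A1380G and A1416G, counted from 1 at the first coding base with the base of Hspa1a first. The differing bases are in capitals:
Hspa1a: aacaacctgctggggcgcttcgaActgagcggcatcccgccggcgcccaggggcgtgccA
Hspa1b: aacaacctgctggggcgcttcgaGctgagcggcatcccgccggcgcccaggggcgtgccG
Of all 100-base windows of the transcript, 48.6% in Hspa1a and 49.9% in Hspa1b also occur in another HSP70 gene, so part of their counts was divided by the authors' estimate.

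The 3 Jun genes were well above Fos and Fosb. Junb (chr8:84974484-84978718, GRCm38), the Jun protein of activated lymphocytes, had 2960 counts in replicate 1 (57.6 TPM) and 3235 in replicate 2 (58.4 TPM). By their ratio these 2 values were the closest of all 10 genes, with a mean of 58.0 ± 0.530 TPM (SD, n = 2), above 78.7% of the 12309 detected protein-coding genes. Jund (chr8:70698949-70700616), the Jun protein that resting cells also make, stood at 43.6 and 33.6 TPM from 3571 and 2972 counts, so replicate 1 was the higher, and its mean was 38.6 ± 7.05 TPM (SD, n = 2). Jun itself (chr4:95049034-95052222), the best known partner of Fos, was lower at 9.27 and 8.51 TPM from 845 and 837 counts. It made up 8.39% and 8.47% of the summed Jun family TPM, against 52.2% and 58.1% for Junb and 39.4% and 33.4% for Jund.

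The level of Jund rests on its gene model and on its neighbour. Its transcript is 2878 bases long in the deposited tables and 1668 bases long in GENCODE M21, and scaling its TPM by that ratio gave 75.2 and 58.0 TPM. Taken as they stand, these values would place Jund above Ier2 and Junb in replicate 1 and below both in replicate 2. The scaling keeps every count, also any from bases that the shorter model lacks. The level and rank of Jund under the shorter model are therefore not settled by it. On the opposite strand lies the antisense gene Gm11175 (chr8:70699162-70700080), and 43.5% of the 100-base windows of Jund are found in it. Gm11175 itself was given 898.55 and 699.95 counts. The use of strand is not given in the sources used here, so reads of Jund and Gm11175 cannot be told apart with certainty. Jun shares 4.30% of its windows with the antisense gene Junos, which held 10.33 and 6.03 counts.

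Fos and Fosb, the inducible partners of the Jun proteins, were far lower. Fos (chr12:85473890-85477273) stood at 3.95 and 3.25 TPM from 209 and 208 counts, above 16.6% of detected protein-coding genes, and the deposited bounds of the 2 libraries overlapped. Fosb (chr7:19302696-19310051) stood at 0.160 and 0.130 TPM from 17 and 15 counts, under the detection limit in both. Summed over Jun, Junb and Jund the level was 110.5 and 100.5 TPM, and over Fos and Fosb 4.11 and 3.38 TPM. Jun family message thus exceeded that of Fos and Fosb 26.9-fold in replicate 1 and 29.7-fold in replicate 2. With Fosl1 and Fosl2 added to the Fos side, the ratios were 21.1 and 24.4.

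Ier2 (chr8:84661331-84662852), a nuclear protein of the immediate-early response, was the highest of the 10 genes at 70.8 and 63.7 TPM, from 2972 and 2886 counts. Its mean of 67.3 ± 5.01 TPM (SD, n = 2) lay above 81.5% of detected protein-coding genes. Dusp1 (chr17:26505590-26562128), the phosphatase that ends MAP kinase signalling, stood at 17.8 and 21.7 TPM from 951 and 1265 counts, and here replicate 2 was the higher. Atf3 (chr1:191170296-191218039), a basic leucine zipper factor induced by stress, was the lowest of the detected genes, at 1.75 and 1.17 TPM from 97 and 69 counts. Only 3.59% of detected protein-coding genes had a lower mean level than Atf3.

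Of the inducible HSP70 genes, Hspa1a (chr17:34969190-34972156) stood at 5.63 and 6.27 TPM from 476 and 572 counts, and Hspa1b (chr17:34956436-34959238) at 0.680 and 0.590 TPM from 54.5 and 50.8 counts. Hspa1a was given 89.7% and 91.8% of the counts of the pair. The deposited posterior SD of the count, which measures how uncertain the division of reads was, came to 8.78 and 8.66 counts for Hspa1a and to 7.69 and 6.80 counts for Hspa1b. For Hspa1b that uncertainty was a larger part of the count than for Hspa1a. For Jund the posterior SD was 24.4 and 22.8 counts. Summed, the pair reached 6.31 and 6.86 TPM. Hspa8, the HSP70 that cells make without stress, stood at 1509 and 2083 TPM, which is 239 and 304 times the sum of the inducible pair. The endoplasmic reticulum member Hspa5 and the mitochondrial member Hspa9 were at 283 and 391 TPM and at 135 and 149 TPM. Hspa1l and Hspa12a were the lowest, both under 1 TPM.

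**Figure D2:**
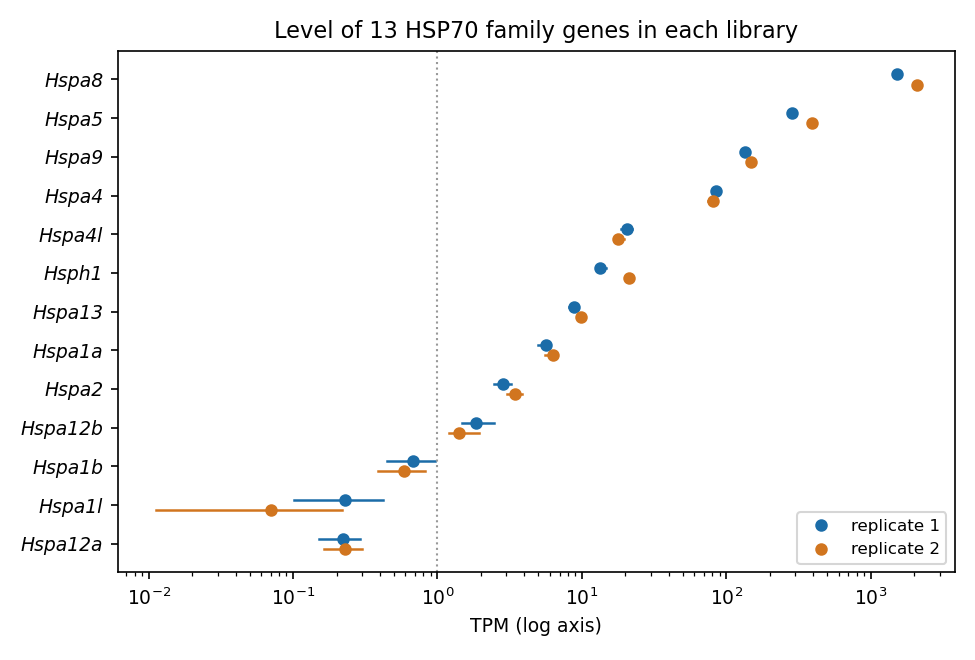
Level of 13 HSP70 family genes on a log axis in TPM, with a point for each library and the authors' deposited bounds as bars. Hspa1a at 5.63 and 6.27 TPM lay below 7 of the others, and Hspa8 at 1509 and 2083 TPM was the highest.

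Differences between the animals were measured as the log2 ratio of replicate 2 over replicate 1 of counts scaled by library, for genes with a mean count of at least 50. Fosb, at a mean of 16.0 counts, fell outside this limit, which left 9 genes to set beside 14155 genes in all. All directions are relative to the bulk of genes: scaling by spike-ins instead, which held 659 and 427 counts, moved the median of all genes by 0.69 toward replicate 2, and on that scale all 9 ratios, Jund (0.36) and Atf3 (0.13) included, were positive. The brackets below hold 95% intervals for counting error only. No gene of the 9 was over 2-fold apart, where 1.35% of all genes were. Jund and Atf3 were over 25% higher in replicate 1, where 10.1% of all genes were, and Dusp1 was over 25% higher in replicate 2, where 6.36% were. So few calls among 9 genes say nothing of these genes beyond that background.

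The ratio of Jund was -0.33 [-0.40, -0.26] and that of Atf3 was -0.55 [-1.02, -0.10], both toward replicate 1. Dusp1 had a ratio of 0.35 [0.22, 0.47] and Hspa1a one of 0.20 [0.02, 0.38], both toward replicate 2. Dusp1 and Hspa1a thus leaned the other way from Jund and Atf3, and the cause was not tested. Ier2 had a ratio of -0.11 [-0.18, -0.03], small and toward replicate 1. For the other 4 genes the interval included 0. Those ratios were -0.07 for Fos, -0.08 for Jun, 0.06 for Junb and -0.16 for Hspa1b. Thus 5 of the 9 intervals left out 0, but so did 49.9% of the intervals of all genes. The deposited TPM bounds of the libraries were apart for 3 genes (Jund, Ier2 and Dusp1) and for 27.4% of all genes.

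The 9 genes leaned both ways: 6 ratios were negative and 3 positive, where 46.1% of all genes had a negative ratio. Their median was -0.08 against 0.02 over all genes. Of the 9, 8 lay between the 5th and 95th percentiles of all genes, which were -0.48 and 0.36, and Atf3 lay below. The calls of Jund and Dusp1 past 25% sat close to that limit, and that of Atf3 lay further out. Dusp1 missed it as a ratio of TPM (0.27 with a pseudocount of 1) or FPKM (0.29) and, narrowly, when scaled by total counts (0.32) or after trends with GC content and length were removed (0.32). Jund missed it after that removal (-0.24) and, narrowly, with DESeq2 size factors (-0.32), and Atf3 missed it as a ratio of FPKM (-0.29). With Gm11175 added to Jund the ratio was -0.35. Gm11175 alone had a ratio of -0.42, and the nuclear RNA list, which was higher in replicate 1 for all 5 genes, had a median of -0.54, or -0.18 after removal of the GC and length trends, when Malat1 alone (-0.87) was past 25%. Its part in the ratios of Jund and Atf3 was not tested.

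**Figure D3:**
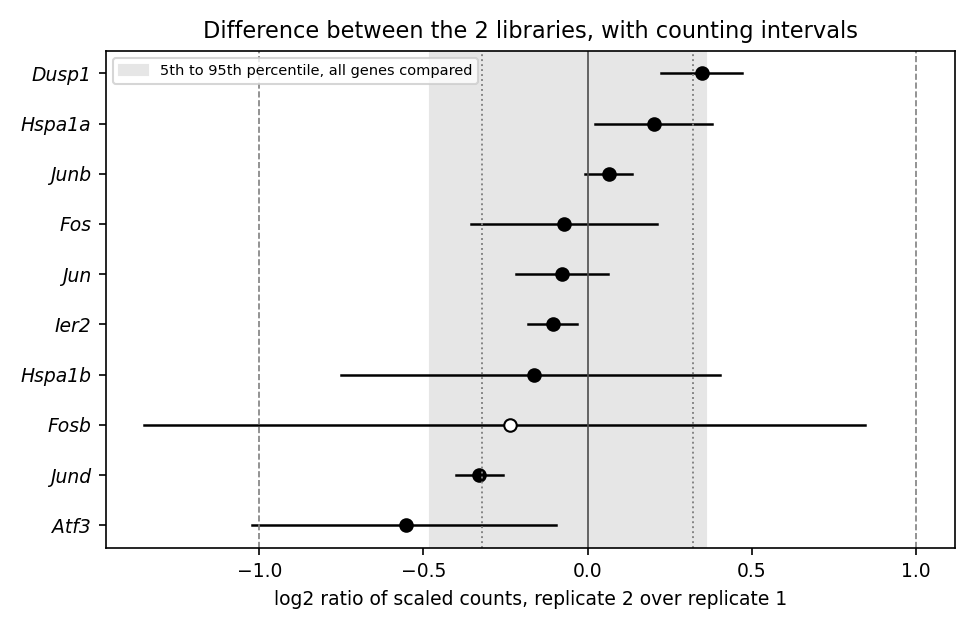
Log2 ratio of scaled counts, replicate 2 over replicate 1, for each of the 10 genes, with 95% counting intervals as bars; the grey band spans the 5th to 95th percentiles of 14155 genes, dotted lines mark a 25% difference and dashed lines 2-fold. Fosb, with an open point, had a mean of 16.0 counts; Dusp1 lies at the right and Atf3 and Jund at the left.

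The other genes of the pathway were taken from lists, and their ratios are shown beside those of the 10. Among 11 other AP-1 family genes 7 were detected, led by Atf2 at 37.8 and 30.3 TPM and the small Maf protein Mafk at 33.6 and 32.7 TPM. Atf7 (17.9 and 14.8 TPM), Mafg (15.0 and 13.3 TPM) and Batf, an AP-1 factor of lymphocytes (14.4 and 13.8 TPM), came next, all above Jun. Maff stood at 4.18 and 4.74 TPM and Batf3 at 2.99 and 2.68 TPM. Fosl2 was under 1 TPM in both libraries, as were Fosl1, Batf2 and Jdp2. Of the 8 with enough counts, 1 (Fosl2, -0.36) was over 25% higher in replicate 1 and 0 in replicate 2, and their median ratio was -0.08. Of 16 kinases and factors upstream of AP-1, Mapk8 (-0.34) and Srf (-0.38) were over 25% higher in replicate 1 and 0 in replicate 2. Mapk8 encodes the kinase JNK1, which phosphorylates Jun, and Srf the factor that drives Fos.

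The remaining immediate-early genes also leaned both ways. Of 30 with enough counts, 15 ratios were positive and 15 negative, with a median of -0.01. Ier5 (-0.69) and Ccn1 (-0.44) were over 25% higher in replicate 1. In replicate 2 these were Egr1 (0.33), Egr2 (0.34), Trib1 (0.40) and Per1 (0.35). Btg2, Nfkbia and Myc were the most abundant, at 260 and 277, 207 and 185, and 157 and 167 TPM. Npas4, an immediate-early gene of neurons, had 0 counts in both, which allows up to 3 counts in each. Among the other MAP kinase phosphatases, Dusp2 stood at 154 and 120 TPM and Dusp10 at 82.9 and 75.9 TPM, both above Dusp1. Dusp5 (27.6 and 28.7 TPM) and Dusp6 (27.5 and 26.6 TPM) were also above Dusp1. Dusp8 (0.81, from 39 and 72 counts) was the only one of 8 over 25% apart.

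Chaperone genes leaned toward replicate 2. Other HSP70 genes had a median ratio of 0.25, with 4 of 9 over 25% higher in replicate 2 and 0 in replicate 1. The 4 were Hspa2 (0.32), Hspa5 (0.47), Hspa8 (0.55) and Hsph1 (0.71). The 19 other heat shock genes had a median of 0.22, with 3 over 25% higher in replicate 2 (Hspe1, Serpinh1 and Stip1). Dnajb1, the heat-inducible partner of HSP70, was the only one over 25% higher in replicate 1, at 101 and 78.4 TPM and a ratio of -0.33. Hspa1a at 0.20 lay near these medians, and Hspa1a and Hspa1b summed had a ratio of 0.17 [-0.000806, 0.34]. The 10 genes of the integrated stress response, to which Atf3 belongs, had a median of 0.09, and 0 of 10 were over 25% apart in either direction. Some cell type markers also differed. Cortical thymic epithelium markers summed to 1852 and 2177 TPM (3 of 5 over 25% higher in replicate 2). Granulocyte markers summed to 175 and 112 TPM, of which S100a8 held 123 and 82.4 TPM. Of 4 granulocyte markers compared, 3 were over 25% higher in replicate 1, and Mpo leaned toward replicate 2 (0.22). Genes listed as parathyroid, adipocyte and skeletal muscle markers differed too. The parathyroid hormone gene Pth stood at 54.9 and 28.2 TPM. The other parathyroid markers, Gcm2 (0.05 TPM in both) and Casr (0.27 and 0.22 TPM), were under 1 TPM. The 5 adipocyte markers summed to 6.38 and 1.07 TPM (Adipoq at 3.75 and 0.580 TPM), and 5 skeletal muscle markers to 21.4 and 30.0 TPM. Whether these messages came from the thymus or from tissue beside it was not tested. None of the markers was at 0 in both libraries, and their part in the ratios of the 10 genes was not tested.

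**Figure D4:**
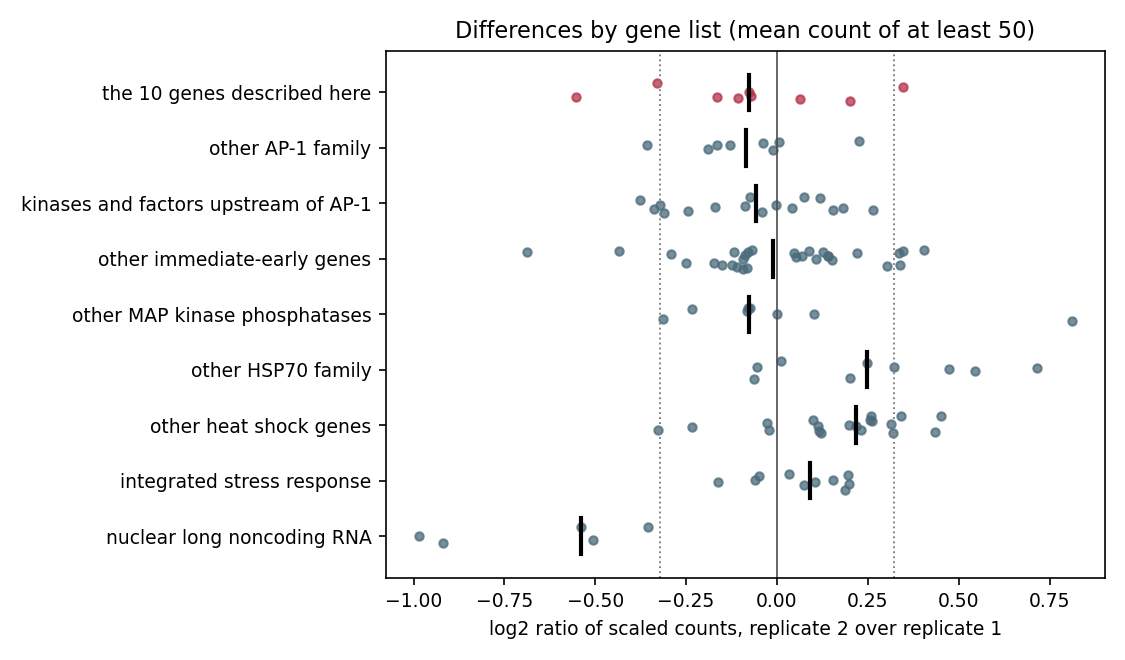
Log2 ratio of scaled counts, replicate 2 over replicate 1, for each gene of 9 lists with a mean count of at least 50; black bars are list medians and dotted lines mark a 25% difference. The 10 genes described here (9 shown) have a median of -0.08, the other HSP70 genes one of 0.25 and the nuclear noncoding RNAs one of -0.54.

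Transcript shares were read from the deposited percent of each gene's TPM. A single transcript is listed for 7 of the 10 genes. The main transcript of 6 genes has 1 exon (Jun, Junb, Jund, Ier2, Hspa1a and Hspa1b), against 2.67% of detected protein-coding genes, so most of these messages need no splicing. Fos was assigned 85.5% and 100% to its coding transcript Fos-201. The rest in replicate 1 was the short noncoding transcript Fos-202, which held 9.02 of the 209 counts. Atf3 was assigned 100% to Atf3-201 in replicate 1 but 52.9% in replicate 2, where the coding transcript Atf3-203 took 47.1%. Those shares of Atf3 rest on 97 and 69 counts. Dusp1 was assigned 87.5% and 89.2% to the coding transcript Dusp1-202. The transcripts of Dusp1 that retain introns, Dusp1-203 and Dusp1-204, took 4.54% and 7.95% in replicate 1 and 4.32% and 6.44% in replicate 2, so their shares differed little between the libraries.

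**Figure D5:**
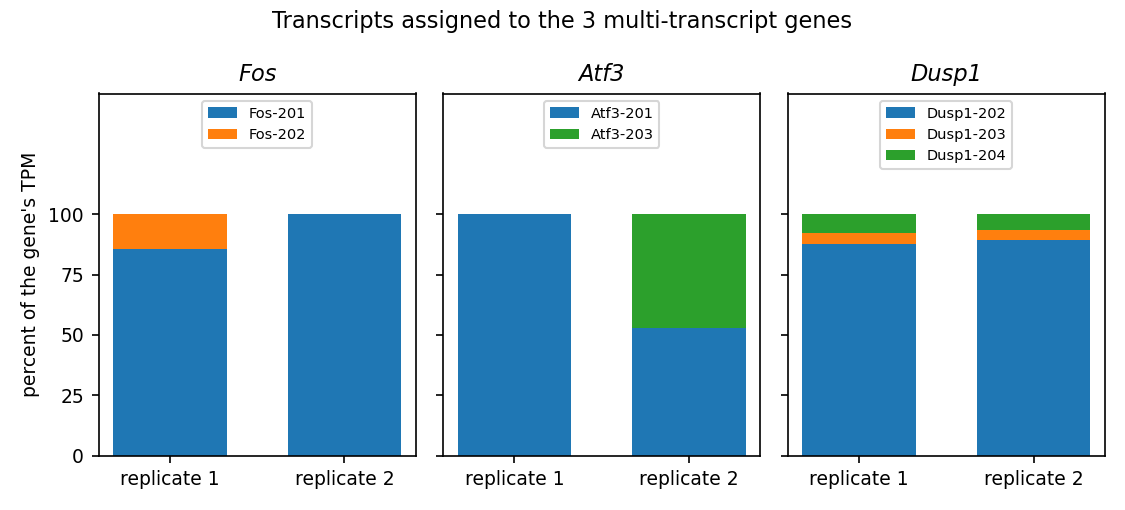
Percent of each gene's TPM assigned to its transcripts, for the 3 genes with more than 1 transcript listed, in each library. Dusp1 has nearly the same division in both, while Atf3 goes from 100% to 52.9% Atf3-201.

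Promoters were taken from RefSeq (GRCm38.p6) for 9 of the 10 genes; Ier2 had no entry. Windows of 250 bases before to 50 bases after the start were searched on both strands for the cyclic AMP response element (TGACGTCA), the AP-1 site (TGACTCA or TGAGTCA), the CArG box bound by Srf, an inverted pair of heat shock factor motifs (GAANNTTC or TTCNNGAA) and the TATA box (TATAAA). Among 32851 promoters of that length these occur in 1.79%, 5.20%, 1.63%, 15.1% and 13.6%. Of the 9 genes, 6 had at least 1 match, among them Hspa1a and Hspa1b with near-identical windows. The share of all promoters with any match was not counted, so 6 of 9 says nothing beyond background. The bases before the start are shown for 4 of the 6 genes, each with a match, in capitals, that lies wholly before the start. Fos has a TATA box (chr12:85473640-85473889, plus strand), Jun and Hspa1a a heat shock pair (chr4:95052223-95052472 and chr17:34972157-34972406, minus strand), and Dusp1 a cyclic AMP response element (chr17:26508473-26508722, minus strand):
Fos: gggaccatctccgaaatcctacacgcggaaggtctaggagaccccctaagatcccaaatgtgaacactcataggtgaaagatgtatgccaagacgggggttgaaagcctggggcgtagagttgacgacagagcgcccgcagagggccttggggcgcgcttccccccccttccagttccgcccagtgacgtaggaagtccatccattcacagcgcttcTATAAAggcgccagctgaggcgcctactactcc
Jun: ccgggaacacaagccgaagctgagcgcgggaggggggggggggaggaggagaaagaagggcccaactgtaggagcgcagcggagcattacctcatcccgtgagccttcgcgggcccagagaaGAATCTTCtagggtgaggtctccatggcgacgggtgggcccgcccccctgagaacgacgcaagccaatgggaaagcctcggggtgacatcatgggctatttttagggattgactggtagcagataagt
Hspa1a: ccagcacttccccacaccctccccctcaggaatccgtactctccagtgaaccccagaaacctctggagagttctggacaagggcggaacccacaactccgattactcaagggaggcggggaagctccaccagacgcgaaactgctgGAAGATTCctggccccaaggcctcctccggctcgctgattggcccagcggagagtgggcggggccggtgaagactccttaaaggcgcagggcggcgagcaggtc
Dusp1: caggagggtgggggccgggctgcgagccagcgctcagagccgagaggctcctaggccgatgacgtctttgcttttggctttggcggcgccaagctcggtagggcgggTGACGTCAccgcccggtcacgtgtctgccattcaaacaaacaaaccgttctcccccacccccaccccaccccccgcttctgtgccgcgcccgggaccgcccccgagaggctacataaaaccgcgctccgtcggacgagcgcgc
The Hspa1b window (chr17:34959239-34959488, minus strand) has the heat shock pair at the same place. Over 300 bases it differs from that of Hspa1a at 4, C44T, T47C, T249G and C276T, counted from 1 at the 5′ end with the base of Hspa1a first. Those before the start are in capitals:
Hspa1b: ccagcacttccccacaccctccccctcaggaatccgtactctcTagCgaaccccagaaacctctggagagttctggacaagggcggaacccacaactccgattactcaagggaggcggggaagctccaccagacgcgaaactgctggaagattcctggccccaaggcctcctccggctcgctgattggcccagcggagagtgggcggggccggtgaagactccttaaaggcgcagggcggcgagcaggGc
A heat shock pair thus stood before both Hspa1a at 5.95 TPM and Hspa1b at 0.635 TPM, and before Jun at 8.89 TPM (means, n = 2). Junb has a TATA box at its RefSeq start, which lies 30 bases upstream of the GENCODE start. Fosb, Jund and Atf3 had no match to these letters in the window. The RefSeq start lies 1210 bases upstream of the outermost GENCODE start of the gene for Jund, and 34706 and 53656 bases downstream of it for Atf3 and Dusp1, so these windows cover 1 of several possible starts. These matches are letters in a sequence, and no binding was measured.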

How the data were processed

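Total RNA of 2 thymus libraries was analysed from 1 gene table and 1 transcript table each. Expected counts, TPM (per transcript length and library), FPKM and the percent of a gene's TPM given to each transcript were deposited by the authors. Per the labels mm10 was the genome build, molecules above 200 nt were kept, 10 ng of RNA entered each library and spike-in RNA was added. For the aligner, the quantifier and strand, the method is not given in the sources used here. Rows that name no gene held 0.00179% and 0.00107% of counts and were left out. Symbols, coordinates and transcript sequences came from GENCODE M21 (GRCm38), matched by identifier for 42462 of 43346 genes, and promoters from RefSeq. Coding sequence was taken as the longest open reading frame of the main transcript.

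Expected counts were scaled with TMM (edgeR 4.0.16, R 4.3.3). Log2 ratios used a prior count of 0.5. Their 95% intervals are exact Clopper-Pearson intervals of the split of counts, and like the floor of 3 counts they cover counting error only, since reads are not independent molecules. Steps were tested on simulated data. Alternatives changed the detection limit, unit, scaling (DESeq2 1.42.0, total counts, spike-ins), prior and count minimum, removed GC and length trends (lowess, fraction 0.3, statsmodels 0.14.6), summed Hspa1a with Hspa1b, and left out each library. The sum of Jund and Gm11175 was added after the data were seen.

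The members and lists were chosen with earlier results of these data known. Named genes are the 10, all other AP-1 family genes and, of each other list, the 3 highest, those under 1 TPM in both libraries and those over 1.5-fold apart. Other genes over 25% apart, and a few more named beside them, were chosen after their values were seen. Hspa14 was not analysed here, Ccn1 was matched through its older symbol Cyr61, and a planned comparison of protein sequences was not run.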

Additional observations from a re-analysis of the deposited data

How the results depend on the processing

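With spike-in scaling 1 of the 9 genes was over 2-fold apart, where 7.11% of all genes were. Over 25% apart were 8, all toward replicate 2, as were 91.8% of all genes. The median ratio of the 9 was then 0.61, and Jund (0.36) and Atf3 (0.13) reversed in sign. Relative to that shift both stayed lower than the median of all genes. The number of genes over 25% apart, 3 as reported, was 1 as a ratio of FPKM and 1 after removal of GC and length trends. Shares of all genes at those settings are not given here, and the cause of the change was not tested. Without 1 library, 8 genes were still detected, the share of Hspa1a was 89.7% to 91.8%, and 8 genes had a transcript with at least 90% of TPM, Atf3 among them in replicate 1 (100%, Fos at 85.5%) and Fos in its place in replicate 2 (100%, Atf3 at 52.9%). Of 81 alternative ratios of single genes, 71 stayed within the counting interval of the reported ratio. No paired analysis was possible because the 2 libraries form 1 group. The counts of Fosb (17 and 15), Hspa1b and Atf3 limit what can be seen of them: the interval of Fosb ran from -1.35 to 0.84.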
